A study of Homo sapiens with 9 samples.

Results

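The genes described here encode the machinery that ties chromosomes to the mitotic spindle: the centromere, the kinetochore built on it, and the spindle checkpoint that reads its attachment. The list held 44 genes. A gene was included when a probe set carried its symbol and no other, and 42 of the 44 had such a probe set, each a single one, out of 22109 genes measured. CENPA, the centromeric histone, and BUB1B, a checkpoint protein, lay only on probe sets shared with another gene and were not analysed here.

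Total RNA of MDA-MB-231, a human breast carcinoma cell line first grown from a patient's pleural effusion, was hybridised to Affymetrix whole-transcript arrays, with 9 arrays in 3 groups of 3. YM-155 (sepantronium bromide) was developed to suppress survivin, the BIRC5 product, which itself works at the centromere as a subunit of the chromosomal passenger complex. The 20 h group received 14.6 ng/ml YM-155, given as its LC50, the 8 h group received increments adding up to 83 ng/ml, and the control group received nothing. Dose and duration changed together, so neither can be separated, the labels give the controls as untreated with no vehicle or harvest time (YM-155 was dissolved in DMSO and diluted in HBSS), and all groups are a single cell line. No label says that replicates were separate cultures, so p-values measure the spread between these arrays, which may be technical.

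Centromeric chromatin is marked by the histone variant CENP-A, which the chaperone HJURP and the Mis18 proteins deposit after each division. A constitutive network of CENP proteins binds that chromatin throughout the cell cycle, and at mitosis it recruits the KMN network (KNL1, the Mis12 complex and the Ndc80 complex), which holds the microtubules. Kinetochores without microtubules activate the spindle checkpoint, which delays anaphase. Many of these genes are transcribed mainly late in the cell cycle, through promoters bound by the DREAM and MuvB complexes at an element called CHR, by NF-Y at CCAAT boxes and by E2F factors.

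Promoters are shown first, as examples chosen with the matches known: 5 of members that fell at 20 h and hold a CHR near the start, CENPI, which fell most and holds none of the words searched, and the 3 members that did not fall. Of the 31 members with a window that fell at 20 h, 16 held no CHR. RefSeq promoter windows (GRCh38.p14) were available for 34 of the 42 measured members. Each sequence below runs 5′ to 3′ on the gene's strand, over 120 bases before the annotated start and 20 after it. Capitals mark a CHR (TTTGAA) or a CCAAT box (CCAAT), each searched on both strands, or an E2F word. The E2F words, also searched on both strands, were TTGGCGC, the closely related word TTCCCGC, the further variant of these TTGCCGC, and as the last of the set TTCGCGC. The first 5 genes encode subunits of the Ndc80 complex, the Ska complex and the passenger complex, CENPI follows, and the last 3 are members that did not fall.
NDC80 (chr18:2571437-2571576, plus strand): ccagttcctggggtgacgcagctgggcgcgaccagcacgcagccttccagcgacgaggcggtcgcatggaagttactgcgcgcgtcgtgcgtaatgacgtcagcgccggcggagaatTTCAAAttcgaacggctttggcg
SPC25 (chr2:168890411-168890550, minus strand): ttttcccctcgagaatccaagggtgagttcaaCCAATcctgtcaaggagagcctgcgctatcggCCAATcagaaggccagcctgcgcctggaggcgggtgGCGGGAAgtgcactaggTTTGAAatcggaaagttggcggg
SKA3 (chr13:21176533-21176672, minus strand): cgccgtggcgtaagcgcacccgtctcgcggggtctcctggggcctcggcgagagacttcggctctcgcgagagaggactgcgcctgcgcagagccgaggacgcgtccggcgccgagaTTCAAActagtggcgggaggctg
CDCA8 (chr1:37692396-37692535, plus strand): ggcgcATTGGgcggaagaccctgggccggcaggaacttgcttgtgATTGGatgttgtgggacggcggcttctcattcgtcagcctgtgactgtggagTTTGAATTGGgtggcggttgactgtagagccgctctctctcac
INCENP (chr11:62123891-62124030, plus strand): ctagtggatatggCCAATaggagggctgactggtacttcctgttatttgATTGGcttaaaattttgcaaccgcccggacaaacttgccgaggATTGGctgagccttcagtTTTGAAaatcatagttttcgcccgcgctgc
CENPI (chrX:101100938-101101077, plus strand): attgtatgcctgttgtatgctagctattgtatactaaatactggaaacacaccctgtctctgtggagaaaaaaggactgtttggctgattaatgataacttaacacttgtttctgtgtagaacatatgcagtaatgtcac
MAD1L1 (chr7:2232926-2233065, minus strand): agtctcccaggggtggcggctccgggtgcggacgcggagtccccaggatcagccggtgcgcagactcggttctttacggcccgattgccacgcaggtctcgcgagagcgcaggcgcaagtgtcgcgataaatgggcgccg
CENPT (chr16:67847674-67847813, minus strand): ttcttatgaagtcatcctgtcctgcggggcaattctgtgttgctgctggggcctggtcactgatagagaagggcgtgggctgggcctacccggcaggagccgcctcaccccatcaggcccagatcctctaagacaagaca
MIS12 (chr17:5486254-5486393, plus strand): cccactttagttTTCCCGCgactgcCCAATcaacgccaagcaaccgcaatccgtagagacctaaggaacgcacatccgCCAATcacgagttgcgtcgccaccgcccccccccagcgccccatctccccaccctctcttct

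In NDC80, SPC25 and SKA3 the CHR lay across the start itself, beginning 3 bases before it, and in INCENP and CDCA8 it began 10 and 23 bases before it. INCENP and CDCA8 each also held 3 CCAAT boxes, 1 of which overlapped the CHR by a base in CDCA8, and SPC25 held 2. CENPI, MAD1L1 and CENPT held none of these words in their windows. MIS12, which did not fall, held 2 CCAAT boxes and an E2F word in the window printed, 1 of its 2 annotated starts. Over the full windows of 300 bases (250 before the start and 50 after), 15 of 34 members held a CHR (44.1%), against 16.1% of the 15336 tested genes with a window. A CHR lying wholly within 50 bases of the start was present in 12 of 34 members (35.3%), against 4.83% of those genes, a distance chosen after the members' positions were seen. CCAAT boxes were in 23 members (67.6%), against 41.6% of tested genes, and E2F words in 12 members (35.3%), against 19.8%. A CHR and a CCAAT box shared a window in 10 members (29.4%), against 6.61%. All 12 members with a CHR near the start fell at 20 h, as described below, with log2 changes from -2.92 to -1.34 and a median of -1.94. The other 22 members with a window had a median of -1.69, from -3.09 to 0.25, and 19 of them fell. In all, 31 of the 34 members with a window fell, and this split used the distance chosen after the positions were seen. Whether a CHR near the start goes with a larger fall was not tested. The other splits did not run one way, and that for a CHR anywhere in the window ran opposite to this one. The median log2 change at 20 h was -1.73 with a CHR anywhere in the window and -1.92 without, and -1.68 with a CCAAT box and -1.93 without. It was -1.54 with both of these and -1.97 without both, and -1.98 with an E2F word and -1.64 without, each with OIP5 at its fitted value. These matches describe letters in windows around annotated starts, a gene counted once if any of its windows matched, and no binding was measured. Whether these starts, that of CENPI among them, are the ones used in this cell line was not tested.

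**Figure D1:**
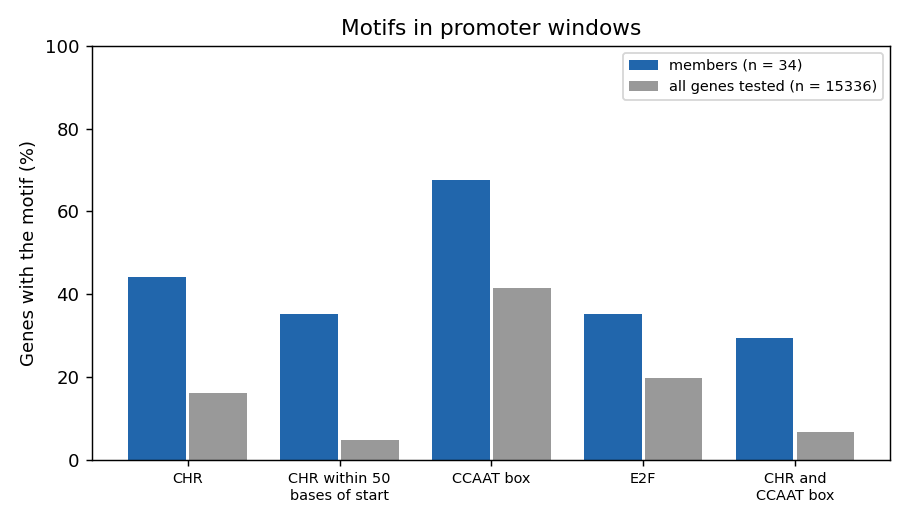
Share of genes (percent, y axis) whose RefSeq promoter window held each word, for the 34 members with a window (blue) and all 15336 tested genes with one (grey). The members' share exceeded that of all genes for every word, with 44.1% against 16.1% for a CHR. For a CHR near the start it was 35.3% against 4.83%, at a distance chosen after the members' positions were seen.

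Array medians lay between 3.11 and 3.20 on the log2 scale of the deposited RMA values, which all levels below use. Signal from genes this line should not use was read from 354 olfactory receptor genes, of which 95% had a mean level under 3.63. All 7 markers of the mesenchymal line lay above that level in every group, with control means such as 8.57 for VIM and 9.06 for CD44. Of 8 luminal epithelial markers, 3 lay under it in every group (ESR1, PGR and FOXA1, with control means of 2.77, 2.04 and 2.37) and 5 above it, among them EPCAM (6.16) and KRT19 (7.77). Of 4 leukocyte markers, PTPRC, CD3E and ITGAM lay under it in every group, and of 3 fibroblast markers DCN and LUM did while COL1A1 was above. The myeloid genes CD14 and ITGAM were called higher at 20 h (limma adjusted p = 0.016 and 0.0337). CD14 had a mean of 3.93 at 20 h and 3.16, under that level, in controls, a difference of at least 1.23-fold, and ITGAM was under it in both (2.68 at 20 h, 2.23 in controls) with overlapping arrays, so no fold is given. The part of such cells in the results was not tested. Control replicate 3 stood apart from the other controls for many members, more often below them than above. For 23 of the 42 members it was the lowest control, against 32.5% of all genes. For 13 of the 42 members it was the highest, a smaller share than the 37.4% of all genes. Its median distance over members from the mean of controls 1 and 2 was -0.15. It was lowest relative to them for CENPE (-0.59), CENPW (-0.50) and MAD2L1 (-0.49), and highest for CENPM (0.56) and CENPP (0.50). Among other mitotic genes it was the highest control for FOXM1 (8.68, against 8.11 and 8.13) and MYBL2 (9.06, against 8.44 and 8.28). It was the lowest for KNSTRN (5.74, against 6.26 and 6.27).

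After 20 h at 14.6 ng/ml nearly the whole kinetochore gene set was lower than in untreated cells. A gene was called when the limma fit over all genes gave an adjusted p under 0.05. By that rule 39 of 42 members fell (17.2% of all genes did) and 1 rose (13.1% of all genes did). Their median log2 change was -1.72, against 0.03 over all genes, with quartiles of -2.28 and -1.14, and the median was -1.69 with OIP5, dim at 20 h, at its bound. At least 2-fold, 33 members fell, against 3.91% of all genes, and in 40 members all 3 treated arrays lay below all 3 controls, against 21.4% of all genes. Leaving out any single array left the same count of 39. In such bulk RNA, fewer cells in the phase that transcribes these genes and less transcript per cell cannot be told apart.

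**Figure D2:**
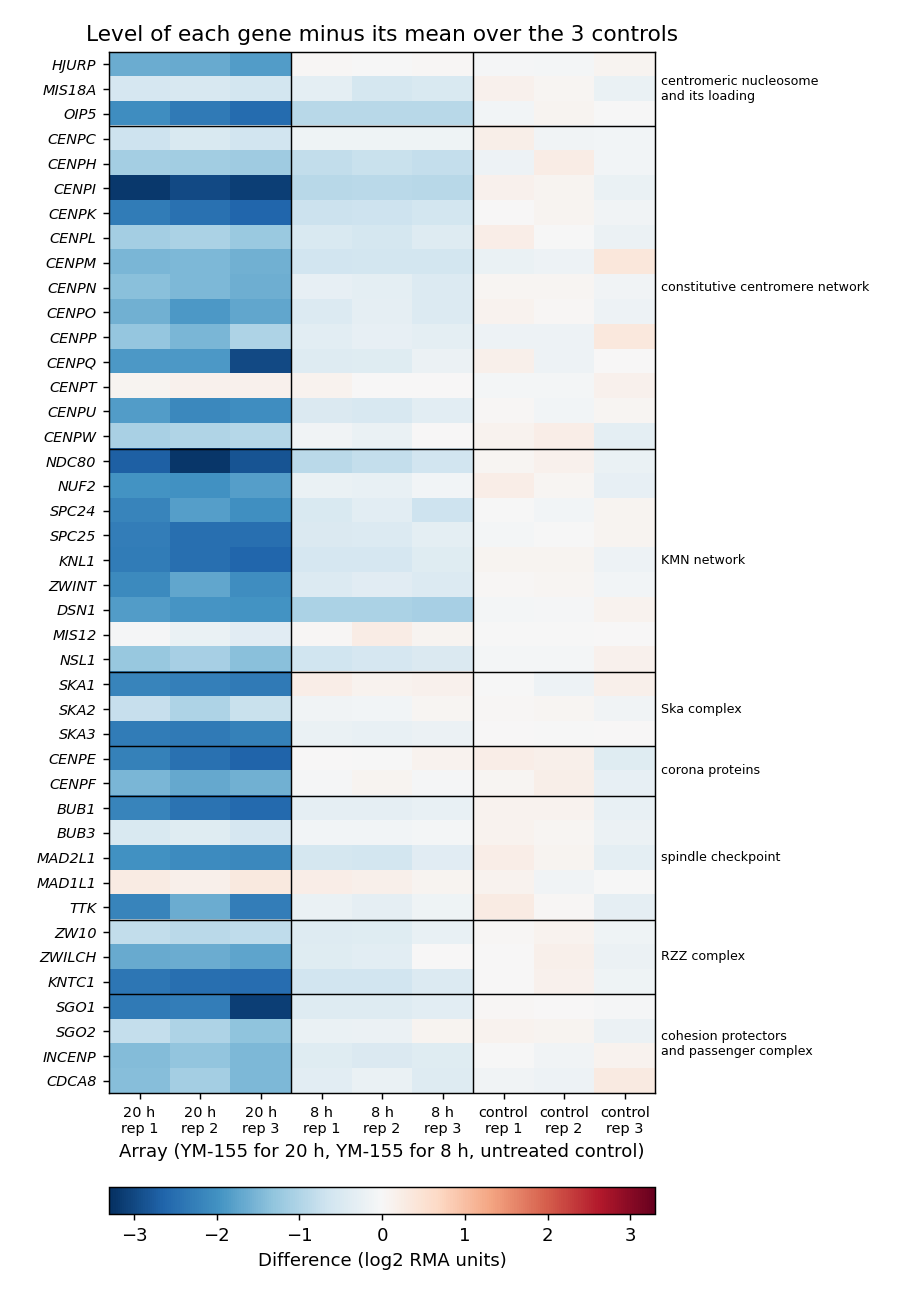
Each row is a member and each column an array (20 h, 8 h, then control), coloured by its log2 RMA level minus the gene's mean over the 3 controls, with roles separated by lines. On each 20 h array 40 members lay below the control mean, with median differences of -1.64, -1.68 and -1.79.

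The response at 8 h, with up to 83 ng/ml, was smaller and reached fewer members. By the same rule 21 of 42 fell (6.28% of all genes did) and 0 rose (5.93% of all genes did), with a median log2 change of -0.35 against -0.003 over all genes. An unadjusted limma p under 0.05 was reached by 23 members, all lower, and the count of rises was 0 in each of 19 alternative fits too. In 28 members all 3 arrays at 8 h lay below all 3 controls, against 14.5% of all genes. Of the 21 falls, 9 were called in each of 19 alternative fits: OIP5, CENPH, CENPI, CENPK, NDC80, DSN1, NSL1, KNTC1 and INCENP. The count depended on single arrays, with 12 falls left without 8 h replicate 1 and 12 without 8 h replicate 2. These arrays gave near-equal levels for many members, such as KNL1 (6.51 and 6.51, replicate 3 6.67) and KNTC1 (8.32 and 8.32, replicate 3 8.48). For others they did not, and they differed most for MIS18A (5.91 and 5.67, replicate 3 5.75). With 8 h replicates 1 and 2 averaged as 1 sample, 15 falls were left. Whether they were separate samples was not tested. Without control replicate 3, the control that stood apart, the same 21 members fell.

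Between the treated groups themselves, 39 of 42 members were lower at 20 h than at 8 h (13.6% of all genes were) and 0 were higher (8.95% of all genes were). The median log2 difference was -1.41, against 0.02 over all genes, and the 39 were also the only members with an unadjusted limma p under 0.05. Of the 39, 20 had already fallen at 8 h and fell at 20 h, and 18 fell at 20 h without having passed the test at 8 h. The last was MIS12, called in neither comparison with control. Only MIS18A fell in both comparisons with control without a called difference between 20 h and 8 h, among the members measured.

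**Figure D3:**
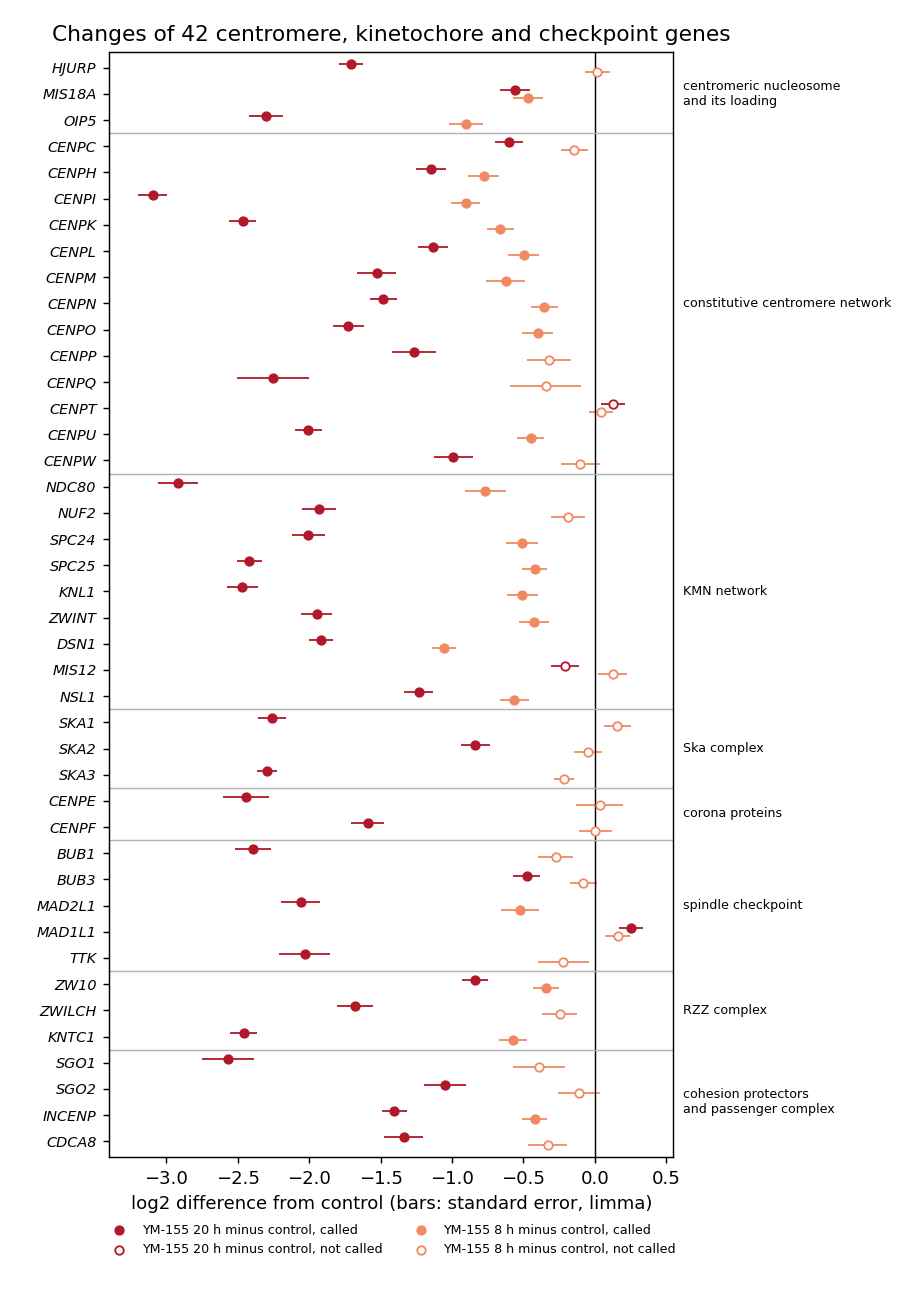
Log2 difference from control of each member at 20 h (dark red) and 8 h (orange), with limma standard errors as bars, filled where called and open where not. The 20 h points lie left of the 8 h points for all members but CENPT and MAD1L1, and the 8 h points of HJURP, CENPT, MIS12, SKA1, CENPE, CENPF and MAD1L1 lie at or just right of 0.

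Among the factors that load CENP-A, all 3 measured fell at 20 h and 2 at 8 h. OIP5 (probe set 16807605) encodes Mis18-beta, which licenses the centromere for new CENP-A. Its levels were 3.05, 2.76 and 2.56 at 20 h, 4.19, 4.18 and 4.19 at 8 h, and 5.00, 5.19 and 5.09 in controls. The 3 groups did not overlap. The 20 h mean, 2.79, lay under 3.63, the olfactory receptor level, as that of no other member did, so its fall at 20 h is a bound of at least 2.75-fold, the control mean of 5.09 set against 3.63 (limma adjusted p = 5.05e-07). At 8 h the fall was 1.87-fold (limma adjusted p = 0.000909). MIS18A, its partner in the Mis18 complex, had 5.69, 5.72 and 5.64 at 20 h, 5.91, 5.67 and 5.75 at 8 h, and 6.39, 6.31 and 6.02 in controls. Both treated groups lay below the controls, with log2 changes of -0.56 at 20 h and -0.47 at 8 h, but the difference between them, -0.09, did not pass (limma adjusted p = 0.608). HJURP, the CENP-A chaperone, gave 6.53, 6.50 and 6.32 at 20 h against 8.12, 8.11 and 8.26 in controls. That was a 3.27-fold fall, while its 8 h arrays (8.19, 8.16 and 8.19) overlapped the controls.

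The constitutive centromere network had 13 measured subunits, of which 12 fell at 20 h and 8 at 8 h, with median changes of -1.48 and -0.40. CENPI, which helps to recruit new CENP-A and outer kinetochore proteins, showed the largest fall of any member. Its levels were 5.16, 5.35 and 5.23 at 20 h, 7.43, 7.45 and 7.43 at 8 h, and 8.47, 8.43 and 8.12 in controls. The groups were fully separate, and the change was -3.09 at 20 h, or 8.54-fold (SE 0.10, limma adjusted p = 7.62e-08), and -0.90 at 8 h (adjusted p = 0.000379). CENPH and CENPK form a subcomplex with CENPI and CENPM. CENPH had 3.65, 3.64 and 3.61 at 20 h, 3.96, 4.05 and 3.99 at 8 h, and 4.62, 5.04 and 4.69 in controls. Its log2 changes were -1.15 at 20 h and -0.78 at 8 h. The 20 h mean, 3.63, lay at the olfactory receptor level, so low signal limits the 20 h change and the comparison with 8 h. The difference between the treated groups was called at -0.37 (limma adjusted p = 0.0313), a call that ended when any treated array was left out (adjusted p from 0.0655 to 0.0944).

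CENPK and CENPM fell at both times, with log2 changes of -2.47 and -1.53 at 20 h and of -0.66 and -0.62 at 8 h. The CENP-O group gave changes at 20 h of -1.73 for CENPO, -1.27 for CENPP, -2.25 for CENPQ and -2.01 for CENPU, the subunit that brings in the kinase PLK1. CENPO and CENPU also fell at 8 h (-0.40 and -0.45), and CENPP and CENPQ gave -0.32 and -0.35 without passing. CENPQ had the largest spread among 20 h arrays, with 4.79, 4.80 and 3.71 (SD 0.63). CENPL and CENPN, of which CENPN reads CENP-A nucleosomes directly, fell at 20 h (-1.13 and -1.48) and at 8 h (-0.50 and -0.35). CENPC, the scaffold that links CENP-A to the Mis12 complex, fell at 20 h (-0.60), as did CENPW (-0.99), and at 8 h they gave -0.14 and -0.10 without passing.

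CENPT, which joins CENPW on DNA and recruits Ndc80 complexes by its flexible tail, was the exception in the network. Its levels were 5.90, 5.95 and 5.96 at 20 h, 5.91, 5.81 and 5.83 at 8 h, and 5.73, 5.74 and 5.95 in controls. All 3 groups overlapped, and the differences from control were 0.13 at 20 h (SE 0.08, limma adjusted p = 0.294) and 0.04 at 8 h (adjusted p = 0.829). With quantile normalization applied again, the 20 h difference passed as a rise (adjusted p = 0.0351).

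In the KMN network, which makes the microtubule attachment, 8 of 9 genes fell at 20 h and 7 at 8 h, with median changes of -1.95 and -0.51. NDC80, the subunit whose head touches the microtubule, had 4.88, 4.36 and 4.71 at 20 h, 6.69, 6.78 and 6.93 at 8 h, and 7.63, 7.71 and 7.36 in controls. The groups did not overlap, with falls of 7.56-fold at 20 h (log2 change -2.92, SE 0.14, limma adjusted p = 3.95e-07) and 1.70-fold at 8 h. Its partners in the complex fell at 20 h, with log2 changes of -1.93 for NUF2, -2.01 for SPC24 and -2.42 for SPC25. At 8 h SPC24 and SPC25 fell (-0.51 and -0.42), while NUF2 gave -0.19 (limma adjusted p = 0.409). KNL1, the platform for checkpoint proteins, fell at 20 h (-2.47) and 8 h (-0.51), as did ZWINT, its binding partner (-1.95 and -0.43).

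The Mis12 complex, which anchors the network to the centromere, was split among its subunits. DSN1 had the largest change of any member at 8 h. Its levels were 5.61, 5.50 and 5.47 at 20 h, 6.41, 6.41 and 6.35 at 8 h, and 7.38, 7.40 and 7.56 in controls. It was the only member to fall at least 2-fold at 8 h (2.08-fold, log2 change -1.06, SE 0.08, limma adjusted p = 4.3e-05), and it was 3.78-fold lower than control at 20 h. NSL1 fell at 20 h (-1.23) and 8 h (-0.56). MIS12 itself had 7.85, 7.67 and 7.50 at 20 h, 7.91, 8.13 and 7.97 at 8 h, and 7.88, 7.88 and 7.89 in controls. Its arrays lay just below the controls at 20 h and just above them at 8 h, and neither difference passed (-0.21 and 0.13, limma adjusted p = 0.157 and 0.526).

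The Ska complex keeps kinetochores on shortening microtubules, and the corona proteins CENP-E, a kinesin, and CENP-F coat kinetochores before attachment. All 5 of these genes fell at 20 h and 0 passed at 8 h. SKA1 had 4.46, 4.40 and 4.30 at 20 h, 6.86, 6.76 and 6.78 at 8 h, and 6.64, 6.48 and 6.81 in controls. The 8 h arrays overlapped the controls and the 20 h arrays lay far below both, 4.79-fold under control (log2 change -2.26, SE 0.10, limma adjusted p = 2.06e-07). SKA3 had 6.30, 6.29 and 6.39 at 20 h, 8.40, 8.37 and 8.43 at 8 h, and 8.64, 8.60 and 8.62 in controls. All its 8 h arrays were below the controls, yet the change of -0.22 missed the threshold (limma adjusted p = 0.0742), and at 20 h it was -2.29. SKA2 changed least of the 3, with 5.49, 5.23 and 5.50 at 20 h against 6.28, 6.32 and 6.13 in controls, a log2 change of -0.84, and its 8 h arrays (6.13, 6.16 and 6.30) overlapped the controls.

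CENPE had 4.33, 4.09 and 3.91 at 20 h, 6.56, 6.54 and 6.66 at 8 h, and 6.77, 6.73 and 6.16 in controls. Its fall at 20 h was 5.43-fold (log2 change -2.44, SE 0.16, limma adjusted p = 2.43e-06), and its difference between 20 h and 8 h, -2.48, was the largest of any member. At 8 h the change was 0.03, and without control replicate 3, its lowest control, it was -0.16 (limma adjusted p = 0.49). CENPF had 6.71, 6.52 and 6.64 at 20 h, 8.17, 8.30 and 8.18 at 8 h, and 8.29, 8.40 and 7.95 in controls. Thus CENPF fell 3.01-fold at 20 h and gave a log2 change of 0.00 at 8 h, again with control replicate 3 the lowest control, without which the 8 h change was -0.13 (limma adjusted p = 0.466).

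**Figure D4:**
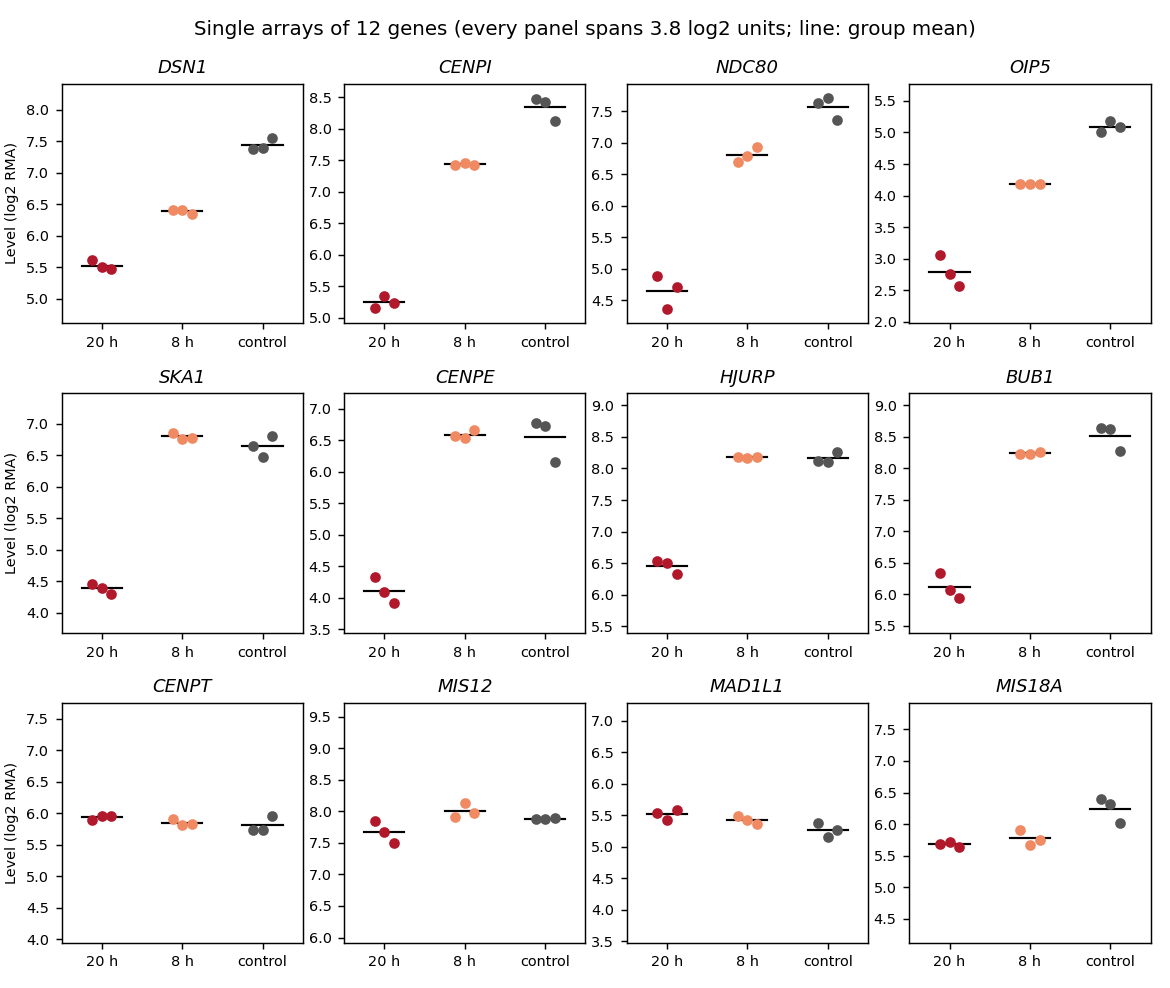
Log2 RMA level on every array for 12 members, as points with the group mean as a line, in panels of equal span. DSN1, CENPI, NDC80 and OIP5 are lower at both times, SKA1, CENPE and HJURP are lower at 20 h with 8 h arrays near or among the controls, and the group means of CENPT, MIS12 and MAD1L1 differ from control by at most 0.25.

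Of the 5 measured checkpoint genes, 4 fell at 20 h and 1 at 8 h, MAD2L1. BUB1, a kinase that recruits the other checkpoint proteins, had 6.34, 6.06 and 5.94 at 20 h, 8.22, 8.22 and 8.26 at 8 h, and 8.63, 8.62 and 8.27 in controls. It was 5.25-fold lower at 20 h (log2 change -2.39, SE 0.12, limma adjusted p = 5.53e-07) and gave -0.28 at 8 h (adjusted p = 0.214), where control replicate 3 lay close to the treated arrays. TTK, the kinase Mps1 at the top of the checkpoint, fell at 20 h (-2.03) and gave -0.22 at 8 h. MAD2L1, the Mad2 protein that restrains CDC20, fell at 20 h (-2.06) and 8 h (-0.52). BUB3, which carries BUB1 to kinetochores, had the smallest called fall of any member at 20 h, -0.48, with 8.90, 8.99 and 8.85 at 20 h against 9.52, 9.46 and 9.20 in controls.

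MAD1L1, which encodes Mad1, the protein that holds Mad2 at kinetochores, was the only member called higher. Its levels were 5.54, 5.42 and 5.59 at 20 h, 5.49, 5.42 and 5.36 at 8 h, and 5.37, 5.16 and 5.26 in controls. The 20 h arrays lay above the controls by 0.25 (SE 0.09, limma adjusted p = 0.0494), and the 8 h arrays overlapped them. That call sat at the threshold and ended in 13 of the 19 alternative fits, among them those without control replicate 2 (adjusted p = 0.165) or 3 (0.0835) and without 20 h replicate 1 (0.112) or 3 (0.139). Mad1 and Mad2 act as a complex, and at 20 h their transcripts had log2 changes of 0.25 (MAD1L1) and -2.06 (MAD2L1).

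The RZZ complex, a scaffold of the corona that brings Mad1 and dynein to kinetochores, fell at 20 h in all 3 subunits and at 8 h in 2. KNTC1, which encodes Rod, had 6.56, 6.45 and 6.44 at 20 h, 8.32, 8.32 and 8.48 at 8 h, and 8.95, 9.09 and 8.79 in controls. The groups were separate, with falls of 5.49-fold at 20 h (log2 change -2.46, SE 0.10, limma adjusted p = 1.25e-07) and 1.49-fold at 8 h (adjusted p = 0.00352). ZW10, which also works in membrane traffic outside mitosis, had 7.25, 7.17 and 7.21 at 20 h, 7.64, 7.66 and 7.82 at 8 h, and 8.09, 8.17 and 7.90 in controls. Its log2 changes were -0.84 at 20 h and -0.34 at 8 h, and the 8 h call ended in 11 of 19 alternative fits. ZWILCH fell at 20 h (-1.68) and gave -0.25 at 8 h.

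The shugoshins, which protect centromeric cohesion, and the passenger complex genes INCENP and CDCA8 (borealin) all fell at 20 h, and INCENP fell at 8 h. SGO1 had 5.47, 5.51 and 4.70 at 20 h, 7.38, 7.37 and 7.46 at 8 h, and 7.83, 7.82 and 7.75 in controls. Its treated arrays were all below the controls, with a change of -2.57 at 20 h (SE 0.18, limma adjusted p = 3.55e-06) and of -0.39 at 8 h that did not pass (adjusted p = 0.226). SGO2 had 4.15, 3.91 and 3.60 at 20 h, 4.71, 4.74 and 5.02 at 8 h, and 5.04, 5.02 and 4.74 in controls. It fell 2.07-fold at 20 h, and its 8 h arrays overlapped the controls. Its 20 h mean, 3.88, lay near the olfactory receptor level of 3.63 and 1 array lay under it, so low signal may limit this fold. INCENP and CDCA8 fell at 20 h (-1.40 and -1.34), and at 8 h their changes were -0.42 (limma adjusted p = 0.0111) and -0.33 (adjusted p = 0.175).

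Counted by role, the falls at 8 h were 8 of 13 in the constitutive network, 7 of 9 in the KMN network, 2 of 3 loading factors and 2 of 3 RZZ subunits. They were 0 of 3 in the Ska complex, 0 of 2 corona genes, 1 of 5 checkpoint genes and 1 of 4 shugoshin and passenger genes. Over all genes, 6.28% fell at 8 h. Falls called in each of the 19 alternative fits were CENPH, CENPI and CENPK in the constitutive network and NDC80, DSN1 and NSL1 in the KMN network. In other roles they were OIP5, KNTC1 and INCENP. The remaining falls ended in some of these fits, so the counts by role are not steady. Whether the roles differ was not tested. At 20 h every role had fallen in all its measured members except CENPT, MIS12 and MAD1L1.

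Other genes of kinetochores and mitosis, listed by function, gave mixed changes. Of 14 further kinetochore and centromere genes, 10 fell (71.4%) and 1 rose (7.14%) at 20 h, with a median of -0.57, and 2 fell and 2 rose (14.3% each) at 8 h, with a median of -0.15. Of all genes, 17.2% fell and 13.1% rose at 20 h, and 6.28% fell and 5.93% rose at 8 h. NUP107, a nuclear pore subunit that also sits at kinetochores, was lower at 20 h (-1.46), as was SPDL1, the dynein adaptor spindly (-1.39). At 8 h ITGB3BP, which encodes CENP-R, and KNSTRN fell (-0.47 and -0.49). NDEL1, a dynein regulator also active between divisions, rose at 20 h (0.80) and 8 h (0.88), and AHCTF1 rose at 8 h (0.32).

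Of 28 further checkpoint and anaphase genes, 19 fell (67.9%, against 17.2% of all genes) and 1 rose (3.57%, against 13.1%) at 20 h, with a median of -0.72. At 8 h 7 fell (25%, against 6.28%) and 1 rose (3.57%, against 5.93%), with a median of -0.25. CDK1, the mitotic kinase, fell at 20 h (-2.14), as did HASPIN, the kinase that marks centromeric histone H3 for the passenger complex (-1.72). BIRC5 and AURKB, the other passenger complex genes, fell at 20 h (-1.24 and -1.21). At 8 h BIRC5 fell (-0.47, limma adjusted p = 0.0311) and AURKB gave -0.04 (adjusted p = 0.873). CDC20, the anaphase activator held by Mad2, fell at 20 h (-0.74) and 8 h (-0.56). At 8 h FBXO5, an inhibitor of the anaphase-promoting complex, and ESPL1 (separase) fell (-0.65 and -0.58). PTTG1, which encodes securin, rose at 20 h (0.78) and 8 h (0.73), and UBE2S was 0.78 higher at 20 h than at 8 h.

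Among 21 regulators of mitotic transcription, 13 fell (61.9%, against 17.2% of all genes) and 5 rose (23.8%, against 13.1%) at 20 h. At 8 h 3 fell (14.3%, against 6.28%) and 1 rose (4.76%, against 5.93%). FOXM1 and MYBL2, activators of late cell cycle genes, fell at 20 h (-1.49 and -1.61) and gave -0.25 each at 8 h without passing. LIN9, the MuvB subunit that is part of both activating and repressing complexes, fell at 20 h (-1.92) and 8 h (-0.72). RBL1, which encodes p107, fell at 20 h (-2.30), and E2F8, a repressor, fell at 20 h (-2.01) and 8 h (-0.55). CDKN1A, which encodes the kinase inhibitor p21, rose at 20 h (1.78) and 8 h (0.96), and LIN37, a MuvB subunit needed for repression, rose at 20 h (0.89). E2F4, the E2F of repressor complexes, was higher than control at 20 h (0.45) and lower at 8 h (-0.48), both called. These comparisons share their 3 controls, and what links the lists was not tested.

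**Figure D5:**
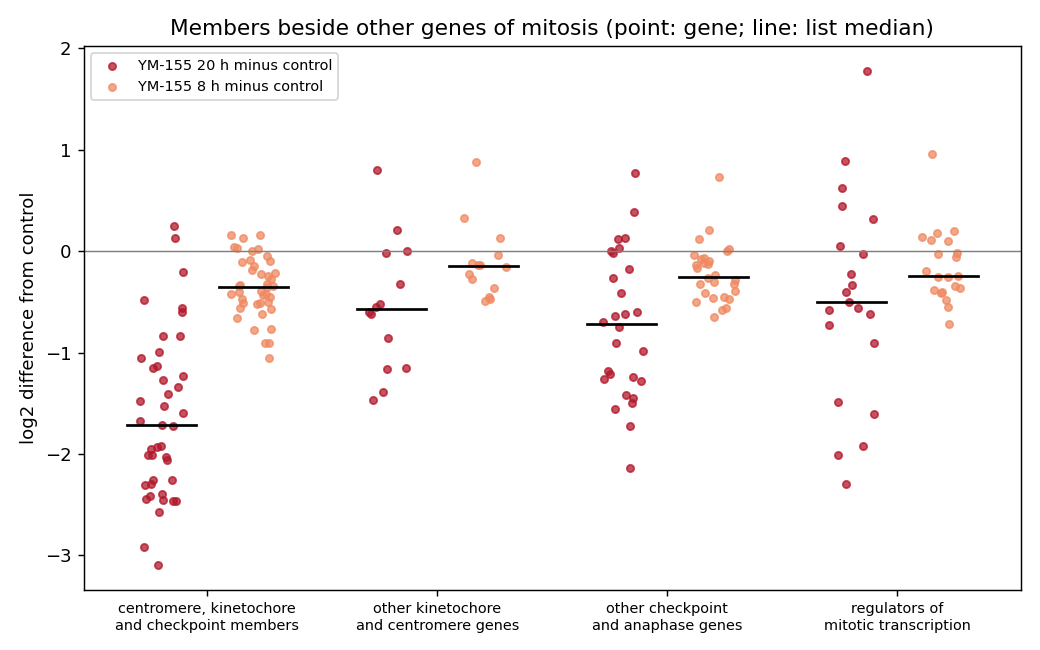
Log2 difference from control of each gene at 20 h (dark red) and 8 h (orange) in the 42 members and in 3 further lists, with the list median as a line. The members' medians were -1.72 and -0.35, against -0.57 and -0.15 for other kinetochore genes and -0.72 and -0.25 for other checkpoint genes.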

How the data were processed

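RNA of 9 samples was measured on Affymetrix whole-transcript arrays. The authors deposited log2 RMA values made in Affymetrix Expression Console, per the submitters' processing notes, 1 value for each of 53617 probe sets. Versions and the annotation build are not given in the sources used here. Promoter windows came from RefSeq (GRCh38.p14). Probe sets were named through GEO's platform annotation. The 23558 with a single symbol were kept and the brightest per gene taken, giving 22109 genes (3 symbols were updated by gene ID). No further normalization was applied. RMA's quantile step assumes like distributions on all arrays, and background signal compresses changes of dim genes.

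The 3 groups were modelled together with limma 3.58.1 under R 4.3.3 (lmFit, eBayes; 6 residual and 4.01 prior degrees of freedom). Tests were two-sided, and Benjamini-Hochberg adjustment ran across the whole gene table. The fit was tested on simulated data. Arrays give no counts, so their number limits the precision. Members, lists and tests were chosen with earlier results of these data known.

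Named with all arrays were, by rule, the largest and smallest 20 h change of each role, members not lower at 20 h, members called higher and the 5 largest 8 h changes. HJURP, SKA1, BUB3 and the 20 h arrays of CENPQ were added after their values were seen. Other lists were named by their 2 largest called changes in each direction, besides BIRC5, AURKB, FOXM1, MYBL2, CDC20, PTTG1 and CDKN1A. Alternatives were a filter on levels, other probe set rules, repeated quantile normalization, centring, 2 groups only, array weights, a trended robust variance, a replicate block, 8 h replicates 1 and 2 averaged as 1 sample, a 2-fold threshold and leaving out each array. Tables and figures used Python 3.11.15, pandas 2.3.3 and matplotlib 3.10.9.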

Additional observations from a re-analysis of the deposited data

Results flagged for a closer look

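For 5 members the changes from control at 8 h and at 20 h had opposite signs and the treated groups differed from each other by limma's adjusted p. The log2 differences of 20 h from 8 h were -1.73 for HJURP, -2.42 for SKA1, -2.48 for CENPE, -1.59 for CENPF and -0.33 for MIS12. None of the 5 was called at 8 h, where their changes lay between 0.00 and 0.16, so the opposite sign itself did not pass a test. Without control replicate 3, the 8 h changes of CENPE and CENPF were -0.16 and -0.13, of the same sign as at 20 h, while those of HJURP, SKA1 and MIS12 were 0.07, 0.24 and 0.13. The call for MIS12 (adjusted p = 0.0378) ended in 11 of 19 alternative fits, with adjusted p up to 0.132. The treated groups differed in dose as well as time. Differences of 20 h from 8 h with like signs are given in the report. Dixon's test for a single outlying value was not run on groups of 3 arrays, and control replicate 3 is described as apart from the other controls by its levels only.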

How the results depend on the processing

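With each array left out in turn, 39 members fell at 20 h and their median change lay between -1.79 and -1.69; at 8 h it lay between -0.39 and -0.35 and between treated groups from -1.44 to -1.37. Members lower at 20 h than at 8 h numbered 37 to 39 without single arrays. Genes called numbered 1807 to 2923 at 8 h, 5697 to 6891 at 20 h and 3611 to 5583 between treated groups. The 8 h count of members was less stable, 12 to 21 without single arrays, 18 with the replicate block and 15 with 8 h replicates 1 and 2 as 1 sample. The rise counted at 20 h, MAD1L1, gave 0 to 1 without single arrays, 2 members with repeated quantile normalization, and 0 with centring, 2 groups only, array weights, a trended robust variance, the replicate block or 8 h replicates as 1; the cause was not tested. A required 2-fold change left, by construction, 1 member lower at 8 h, 0 higher at 20 h and 25 lower between treated groups, and 295, 1449 and 644 genes called. Deviations of same-numbered arrays from their group means correlated between -0.318 and 0.111, over genes at or above the median level. With 3 arrays a group, this cannot decide whether the numbers pair samples. No member's called change turned direction. Low signal limits OIP5 and CENPH at 20 h, and may limit SGO2 there.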
